A study of Danio rerio with 24 samples.

Results

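The circadian clock genes described here are zebrafish genes listed by symbol, with earlier results of these data known: per1a, per1b, per2, per3, nr1d1, nr1d2a, nr1d2b, clocka, npas2 and bhlhe40. Of these 10 symbols, 6 matched an Ensembl gene identifier among the 32520 genes of the liver RNA-Seq tables, of which 29201 carried a symbol. They were per2 (ENSDARG00000034503), per3 (ENSDARG00000010519), nr1d1 (ENSDARG00000033160), nr1d2a (ENSDARG00000003820), npas2 (ENSDARG00000016536) and bhlhe40 (ENSDARG00000004060), and all 6 passed the filter on low counts. The names table writes per2, per3, nr1d1 and bhlhe40 in capitals. For per1a, per1b, nr1d2b and clocka no identifier carried the symbol itself. The 5 identifiers named only by family (PER1, NR1D2 and CLOCK) are described apart from the members. PER1 and CLOCK each name 2 identifiers, whose zebrafish paralogs the table does not tell apart. NR1D2 names 1 identifier, other than that of nr1d2a, so it may be the listed nr1d2b.

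The vertebrate clock is a transcriptional feedback loop that runs in nearly every cell, the liver included. Clock or Npas2 pairs with Bmal and activates genes through E-box elements, among them the per and cry genes, whose proteins return to the nucleus and repress that activity, while the Rev-erb nuclear receptors (nr1d genes) repress and the Ror receptors activate bmal transcription in a second loop. In zebrafish, peripheral tissues respond to light directly, and per2 is one of the genes that light induces.

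RNA was measured in 24 livers of adult ABTL zebrafish, with 3 females and 3 males in each of 4 groups of 6 fish: normally fed untrained (NF-control), overfed untrained (OF-control), normally fed trained (NF-training) and overfed trained (OF-training). Trained fish swam in a tunnel in 20 sessions over 8 weeks and were dissected 24 h after the last session. Overfed fish received 9 mL of live shrimp each per day, in 3 portions spread over the morning. Normally fed fish received a smaller amount in the morning, and all groups got a second feed in the afternoon. Amount and timing of feeding thus cannot be told apart. All groups lived at 28 °C under 13 h of light and 11 h of darkness, were fasted overnight and were dissected in the morning. Each fish was therefore measured once, in the morning, so no rhythm can be read from these values. The clock time and order of dissection and the tank of each fish are not given in the sources used here. The part of dissection time in differences between groups or sexes was therefore not tested. With 6 fish per tank a group may have been 1 tank, so group and tank cannot be told apart.

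Libraries held between 19315642 and 21399321 estimated counts. In females the vitellogenin genes, which encode the yolk precursor that the liver exports, took 29.3% to 74.5% of the counts, and in males 0.007% to 0.159%. Against a female median of 70.3%, NF-training fish 3 (29.3%) and NF-control fish 1 (45.8%) had the lowest shares among females. Next came OF-training fish 2 (58.0%). Results on per2 are also given without each of the lowest 2. Levels below are CPM (counts scaled to library size) further scaled by TMM factors, which correct for such a dominant share. Hepatocyte markers were present in every liver, with 6 of 6 found and a summed level of 22316 to 134395 TPM (transcript abundance scaled to transcript length and library) in females and 113639 to 204252 TPM in males. Of 7 listed exocrine pancreas markers 3 were found (2.36 to 491 TPM in all), of 5 erythrocyte markers 3 (25.0 to 854 TPM), of 5 leukocyte markers 3 (1.88 to 24.9 TPM) and of 5 oocyte markers 5 (0.362 to 2.90 TPM). TPM is a share of each library, so the vitellogenin share also lowers the TPM of other genes in females. Listed genes of female liver output summed to a median of 329652 TPM in females and 111 TPM in males. In whole liver, fewer cells of a type and less RNA per cell cannot be told apart.

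On a scale per transcript length, bhlhe40 had the highest level of the 6 genes, with 63.0 ± 29.1 TPM (SD, n = 24). It was followed by nr1d2a at 21.1 ± 18.5 TPM, nr1d1 at 21.0 ± 9.49 TPM, per3 at 12.5 ± 5.62 TPM and per2 at 6.24 ± 4.30 TPM. The lowest was npas2 at 0.775 ± 0.558 TPM, on 2 to 94 counts per library. Neighbours in this order overlapped within 1 SD, except per2 and npas2. In males the order was the same (84.3, 28.1, 23.5, 16.2, 9.68 and 1.09 TPM). Among females nr1d1 (18.6 ± 8.23 TPM) stood above nr1d2a (14.1 ± 10.2 TPM), within their spread, and per2 was at 2.80 ± 2.32 TPM.

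**Figure D1:**
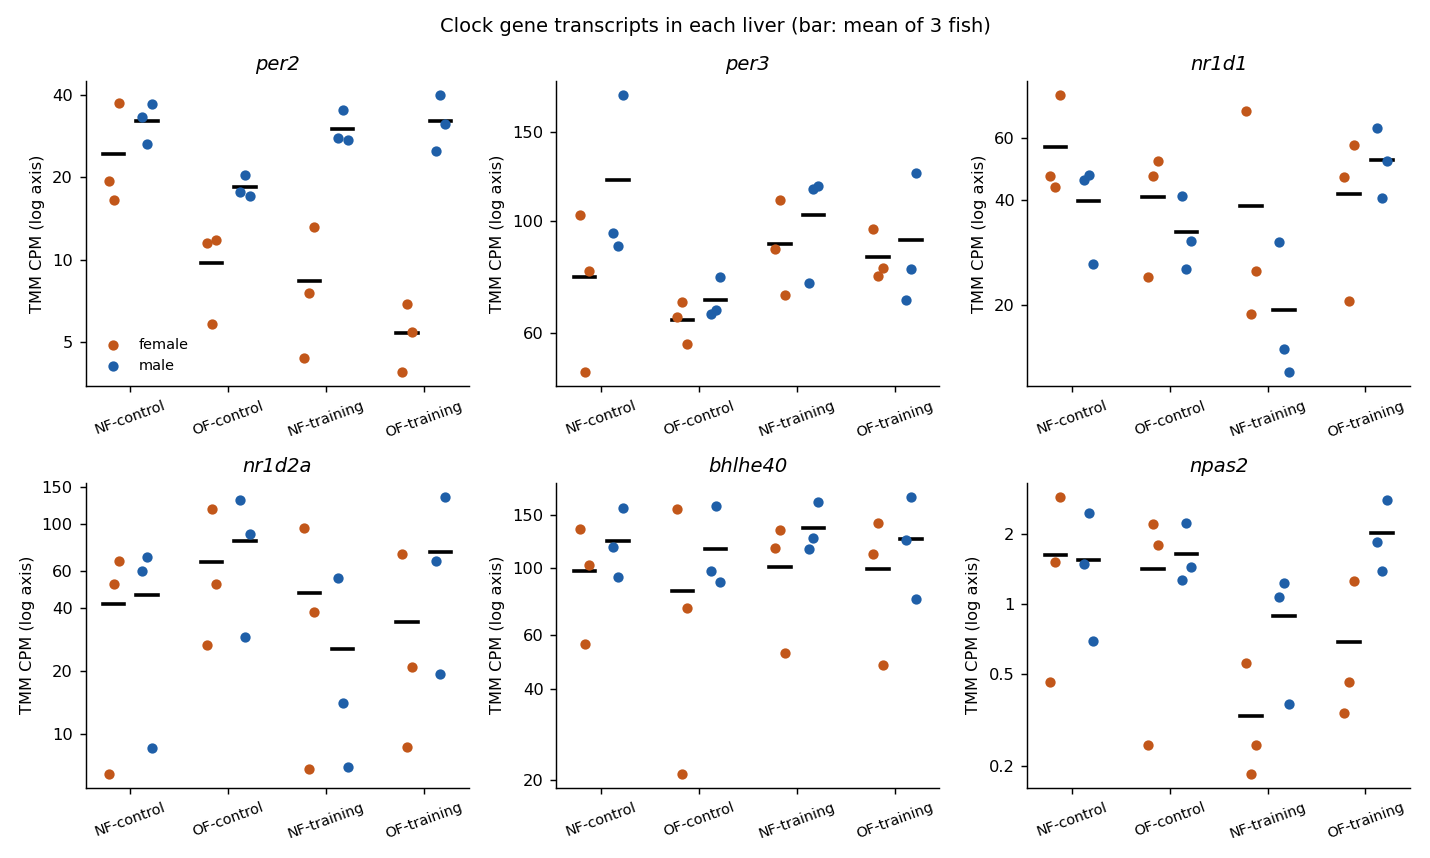
TMM-scaled CPM (log axis) of the 6 clock genes in each of the 24 livers, by group on the horizontal axis, with 3 female and 3 male points per group and a bar at the mean of each 3. For per2 the males of OF-control, NF-training and OF-training sit above the females of the same group, while nr1d2a ranges from 6.45 to 135 CPM with females and males intermingled.

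Only 1 of the 6 clock genes differed between groups of fish at an adjusted p under 0.05 (edgeR quasi-likelihood test, Benjamini-Hochberg over 16223 genes), and it differed by sex: per2 was 2.68-fold higher in males. No member passed for training or overfeeding. Of the 5 identifiers named only by family, described further below, 1 (NR1D2) was called higher and 2 lower in males. The number of members called between the sexes, 1 of 6, stood against 45.8% of all tested genes (23.2% higher in males), so this count was not above the share of all genes. That number became 2 when 1 of 3 fish was left out. Without NF-control fish 3 npas2 was also called (log2 1.02, adjusted p = 0.0228), without OF-control fish 5 again npas2 (0.94, adjusted p = 0.0452), and without OF-control fish 4 bhlhe40 (0.61, adjusted p = 0.0478).

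The question of how training and overfeeding act on the liver was addressed by 4 comparisons of 6 against 6 fish with sex as covariate, which share groups and are therefore not independent. In each, edgeR called 0 of the 6 members, as did DESeq2 and limma voom. For training in normally fed fish 0.173% of all tested genes were called, for training in overfed fish 0.00616%, and for overfeeding 0% in untrained and 0% in trained fish. At an unadjusted p under 0.05, edgeR gave 3 members for training in normally fed fish (11.1% of all genes), 2 for overfeeding in untrained fish (11.3%), 0 for training in overfed fish (5.26%) and 2 for overfeeding in trained fish (9.01%). The members' median log2 change was -0.51 for training in normally fed fish, -0.27 for overfeeding in untrained fish, 0.14 for training in overfed fish and 0.22 for overfeeding in trained fish, against medians of 0.00 over all tested genes. In the first of these, 5 of the 6 values were below 0 and bhlhe40 alone was above.

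**Figure D2:**
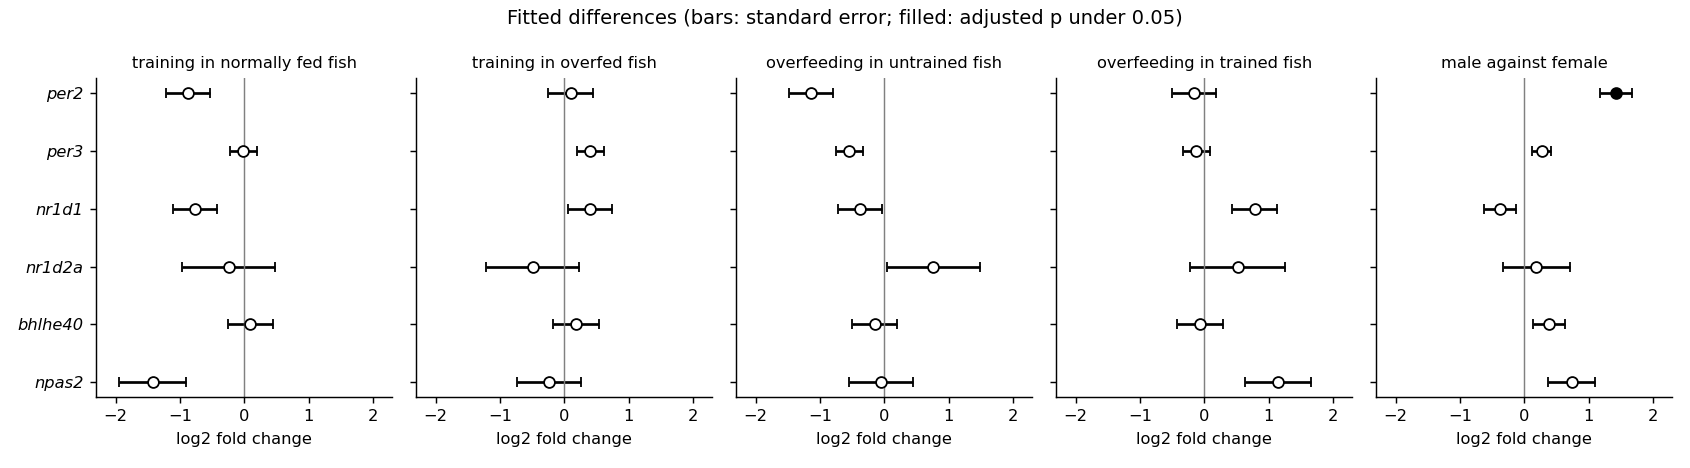
Fitted log2 fold change (horizontal axis) with its standard error for each clock gene in the 4 treatment comparisons and for male against female, over 24 livers. A filled point has an adjusted p under 0.05, which only per2 reached, for male against female (1.42).

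The period gene per2, a repressor of the Clock-Bmal complex and a light-induced gene in zebrafish, was the member called between the sexes. In NF-control livers it was at 19.4, 16.5 and 37.5 CPM in females and at 33.3, 26.5 and 37.2 CPM in males, so the sexes overlapped through female fish 3. In OF-control livers it was at 11.5, 5.81 and 11.8 CPM in females and 17.7, 20.4 and 17.2 CPM in males. Every OF-control fish was below every NF-control fish of its sex.

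The 3 lowest per2 values were those of trained females. In NF-training the females were at 4.35, 7.52 and 13.1 CPM and the males at 27.9, 35.3 and 27.5 CPM. In OF-training the females were at 3.86, 6.85 and 5.41 CPM and the males at 25.0, 40.2 and 31.4 CPM. All NF-training females lay below all NF-control females, whereas NF-training and NF-control males overlapped, and OF-training males lay above OF-control males.

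Over all fish, per2 was at 11.97 ± 9.45 CPM in females and 28.3 ± 7.49 CPM in males (SD, n = 12 each), and the ranges of 3.86 to 37.5 and 17.2 to 40.2 CPM overlapped. The log2 difference was 1.42 ± 0.25 (SE), with an adjusted p of 7.57e-05 by edgeR. Leaving out any of the 24 fish gave 1.34 to 1.62, and the call held each time. Split by group, the difference was 0.40 ± 0.36 in NF-control (adjusted p = 0.484), 0.92 ± 0.36 in OF-control (adjusted p = 0.0785), 1.84 ± 0.37 in NF-training (adjusted p = 0.00331) and 2.58 ± 0.38 in OF-training (adjusted p = 0.000167). Thus per2 was called, as 1 of 6 members, within both trained groups, where 10.1% and 18.7% of all genes were called, and within neither untrained group, where 14.2% (NF-control) and 20.6% (OF-control) were. This split of calls depended on scaling, since per2 was also called in OF-control with library size alone (2.45, adjusted p = 0.00154), with log2(TPM + 1) (1.27, adjusted p = 0.00642) and with log2(TPM + 0.1) (1.61, adjusted p = 0.0101). In the same order, these settings called 11366, 5390 and 5410 of 16223 genes in OF-control. The median of all genes there was 1.62, 0.38 and 0.67, against 0.07 with TMM, so the whole table moved with the scaling. In normally fed fish alone, the sex effect differed between NF-training and NF-control by 1.44 ± 0.51 on the log2 scale, with an unadjusted p of 0.0105 and an adjusted p of 0.567, and so did not pass (of all genes, 0% passed here and 7.47% fell under 0.05 before adjustment). In untrained fish alone, it differed between OF-control and NF-control by 0.52 ± 0.51, with 0 of 6 members called or under 0.05 before adjustment by edgeR, against 0% and 5.57% of all genes. The change of the sex effect with training in overfed fish, and with overfeeding in trained fish, was not tested.

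**Figure D3:**
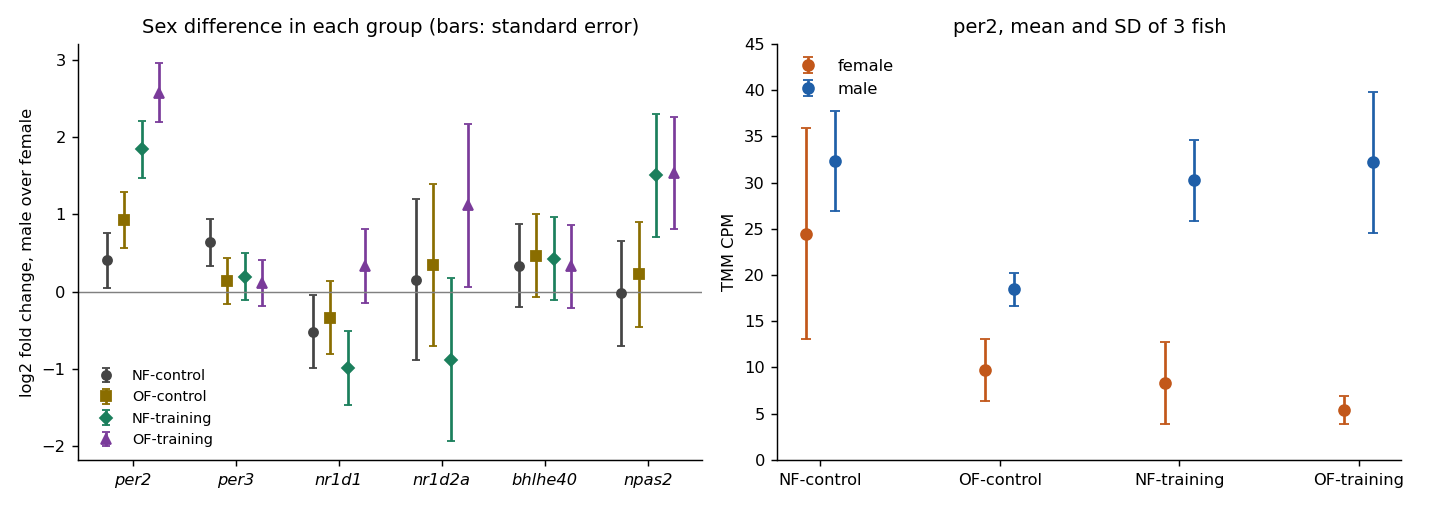
Left: fitted log2 fold change, male over female, with its standard error for the 6 clock genes in each of the 4 groups. Right: per2 in TMM-scaled CPM, mean and SD of 3 livers, by group and sex. The male over female difference of per2 was 0.40 in NF-control and 2.58 in OF-training, and the female mean was 24.5 CPM in NF-control and 5.37 CPM in OF-training.

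In numbers per cell of group and sex, the female means of per2 were 24.5 ± 11.4 CPM in NF-control, 9.70 ± 3.37 in OF-control, 8.34 ± 4.46 in NF-training and 5.37 ± 1.49 in OF-training (SD, n = 3 each). The male means were 32.3 ± 5.41, 18.4 ± 1.75, 30.2 ± 4.39 and 32.2 ± 7.62 CPM in the same order. The males were lowest in OF-control, the females in OF-training. Without NF-training fish 3, the library with the smallest vitellogenin share among females, the sex difference within NF-training was 2.34 (adjusted p = 0.000652) and that over all fish 1.49 (adjusted p = 8.52e-05). Without NF-control fish 1 the difference over all fish was likewise 1.49 (adjusted p = 8.54e-05).

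The treatment comparisons of per2 did not pass the adjusted threshold. Training in normally fed fish gave a log2 difference of -0.88 ± 0.35 (unadjusted p = 0.0187, adjusted p = 0.355), and fitted in each sex alone -1.48 in females and -0.11 in males. Overfeeding in untrained fish gave -1.14 ± 0.35 (unadjusted p = 0.00316, adjusted p = 0.24), with -1.33 in females and -0.84 in males. Both rested in part on NF-control fish 3, the female with 37.5 CPM: without it the values were -0.55 and -0.80. In overfed fish training gave 0.10 ± 0.35, and in trained fish overfeeding gave -0.17 ± 0.34.

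The paralog per3, also a period repressor, varied less between fish of the same group and sex than most tested genes did. NF-control livers held 102, 50.1 and 79.3 CPM in females and 94.6, 89.1 and 177 CPM in males, and OF-control livers 64.6, 69.1 and 57.0 CPM in females and 65.4, 66.6 and 77.3 CPM in males. NF-training livers held 88.0, 110.0 and 71.3 CPM in females and 75.3, 116 and 117 CPM in males, and OF-training livers 96.1, 77.7 and 80.5 CPM in females and 69.7, 80.1 and 124 CPM in males. OF-control livers had the lowest means within each sex and the smallest SDs, with all 3 males below all 3 NF-control males and all 3 females below all 3 OF-training females. The log2 difference for overfeeding in untrained fish was -0.54 ± 0.21 (unadjusted p = 0.0156, adjusted p = 0.353), and -0.33 without NF-control fish 6, the male with 177 CPM. Training in overfed fish gave 0.40 ± 0.21 (unadjusted p = 0.0652, adjusted p = 0.923), training in normally fed fish -0.02 ± 0.21 and overfeeding in trained fish -0.12 ± 0.21. Between the sexes per3 differed by 0.27 ± 0.15 (adjusted p = 0.142). Of the 4 groups the largest value was in NF-control (0.64 ± 0.30, adjusted p = 0.167), and it ranged from 0.25 without NF-control fish 6 (adjusted p = 0.658) to 0.99 without NF-control fish 1.

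Rev-erb alpha, encoded by nr1d1, is a haem-binding repressor of bmal transcription. In normally fed untrained livers it was at 46.9, 43.7 and 79.8 CPM in females and 45.6, 47.0 and 26.3 CPM in males, and in OF-control at 24.0, 46.9 and 51.6 CPM in females and 41.1, 25.3 and 30.5 CPM in males. After training, normally fed livers were at 71.7, 18.8 and 25.0 CPM in females and 30.4, 15.0 and 12.9 CPM in males, and overfed livers at 46.6, 20.6 and 57.4 CPM in females and 64.4, 40.5 and 51.6 CPM in males. The trained males separated by feeding, with every OF-training male above every NF-training male, while the females of these groups overlapped and 1 NF-training female (fish 1, 71.7 CPM) stood far above the other 5 fish of its group. Training in normally fed fish gave a log2 difference of -0.77 ± 0.34 (unadjusted p = 0.0362, adjusted p = 0.417), and -1.20 without that female. Overfeeding in trained fish gave 0.78 ± 0.35 (unadjusted p = 0.0348, adjusted p = 0.551), with 0.07 in females and 1.42 in males fitted alone. The interaction of training with feeding was 1.17 ± 0.49 (unadjusted p = 0.0252, adjusted p = 0.999). It was the only member interaction of training and feeding with an unadjusted p under 0.05, where edgeR and DESeq2 called 0% of all genes and 4.47% had an unadjusted p under 0.05. Between the sexes nr1d1 differed by -0.38 ± 0.25 (adjusted p = 0.216), and by -0.12 (adjusted p = 0.665) without NF-training fish 1. The sign of this difference turned with library size alone and with TPM, but relative to the median of all genes it stayed negative.

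A second Rev-erb gene, nr1d2a, encodes one of the zebrafish counterparts of Rev-erb beta. Single livers ranged from 6.45 to 135 CPM. In NF-control it was at 6.45, 51.7 and 66.4 CPM in females and 60.0, 69.8 and 8.62 CPM in males, and in OF-control at 26.7, 119 and 52.0 CPM in females and 131, 29.1 and 90.2 CPM in males. In NF-training it was at 96.3, 6.78 and 38.0 CPM in females and 55.5, 14.1 and 6.98 CPM in males, and in OF-training at 72.5, 8.69 and 21.0 CPM in females and 66.5, 19.3 and 135 CPM in males. In each of the 8 cells of group and sex the highest liver held at least 4.45 times the level of the lowest, and all groups overlapped. The fitted log2 differences were -0.25 ± 0.73 for training in normally fed fish, 0.76 ± 0.72 for overfeeding in untrained fish, -0.49 ± 0.72 for training in overfed fish and 0.51 ± 0.74 for overfeeding in trained fish. With standard errors of this size, a 2-fold change of nr1d2a (1 on the log2 scale) was not detectable in these groups.

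The basic helix-loop-helix repressor bhlhe40 (Dec1), which competes with Clock and Bmal for E-boxes, was the most abundant member. In NF-control it was at 134, 56.1 and 102 CPM in females and 118, 93.2 and 158 CPM in males, and in OF-control at 157, 20.9 and 73.9 CPM in females and 97.7, 159.6 and 89.9 CPM in males. In NF-training it was at 117, 133 and 52.6 CPM in females and 115, 126 and 165 CPM in males, and in OF-training at 111, 140.2 and 47.7 CPM in females and 124, 172 and 79.0 CPM in males. Each group of females held at least 1 liver below all males of its group, and all groups overlapped. Treatment differences lay between -0.15 and 0.18 on the log2 scale, each with an SE of 0.35. The sex difference was 0.39 ± 0.25 (adjusted p = 0.216), with 0.33 to 0.46 in the 4 groups.

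The Clock paralog npas2, an activator, was the member with the fewest reads. In NF-control it was at 0.461, 1.50 and 2.88 CPM in females and 1.48, 2.44 and 0.689 CPM in males, and in OF-control at 0.248, 2.21 and 1.78 CPM in females and 1.26, 2.21 and 1.43 CPM in males. In NF-training it was at 0.558, 0.186 and 0.248 CPM in females and 1.07, 1.22 and 0.370 CPM in males, and in OF-training at 0.341, 0.462 and 1.26 CPM in females and 1.84, 1.38 and 2.79 CPM in males. The OF-training males lay above both the OF-training females and the NF-training males. Training in normally fed fish gave a log2 difference of -1.42 ± 0.52 (unadjusted p = 0.012, adjusted p = 0.314), with -2.26 in females and -0.80 in males fitted alone, and overfeeding in trained fish gave 1.14 ± 0.51 (unadjusted p = 0.0373, adjusted p = 0.551). In overfed fish training gave -0.23 ± 0.50, and in untrained fish overfeeding gave -0.05 ± 0.50. The sex difference was 0.73 ± 0.37 (adjusted p = 0.107). Within groups it was -0.02 ± 0.67 in NF-control, 0.22 ± 0.68 in OF-control, 1.51 ± 0.80 in NF-training and 1.54 ± 0.73 in OF-training (adjusted p = 0.149 in the last).

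Counted as livers of 3 against 3 that did not overlap, the members behaved as follows. For training in normally fed fish 1 of 6 members separated in females (per2, lower; 10.7% of all genes separated) and 0 in males (13.7%). Overfeeding in untrained fish separated 1 in females (per2, lower; 8.41%) and 2 in males (per2 and per3, lower; 17.7%). Training in overfed fish separated 1 in females (per3, higher; 7.29%) and 1 in males (per2, higher; 14.7%). Overfeeding in trained fish separated 0 in females (8.58%) and 2 in males (nr1d1 and npas2, higher; 15% of all genes). Males against females separated 0 members in NF-control (30.7% of all genes), per2 in OF-control (37.5%), per2 in NF-training (31.4%), and per2 and npas2 in OF-training (37.7%). Of 12 males against 12 females, 0 members separated, and 5.79% of all genes did. With 6 members a single gene is 1 in 6, so most of these counts are close to the share of all genes.

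The sex comparison depended on how the libraries were scaled, since vitellogenin fills most female libraries. Scaling by library size alone moved the median of all tested genes from 0.06 to 1.44 (log2, male over female), and a test on log2(TPM + 1) gave a median of 0.36. Relative to the median of its own setting, per2 was higher in males by 1.36 with TMM, 1.29 with library size alone and 1.30 with TPM. For nr1d1 the same quantity was -0.44, -0.32 and -0.04. Over the 12 females the vitellogenin share and the log2 level of per2 had a Pearson r of -0.23 (Spearman -0.16), which is given as a description, since both come from the same libraries. For per3 it was -0.20 (-0.29) and for bhlhe40 -0.08 (-0.43), while npas2 had 0.54 (0.65), nr1d1 0.48 (0.62) and nr1d2a 0.42 (0.49). With the vitellogenin genes left out of the table the median of all genes was 0.05. Of the marker genes, 3 of 6 hepatocyte markers and 2 of 3 erythrocyte markers were called higher in males, and 5 of 5 genes of female liver output were called lower. Of all tested genes 23.2% were called higher in males and 22.6% lower. Calls in the pancreas, leukocyte and oocyte lists are not given here. The part of these markers in the result on per2 was not tested.

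The identifiers that the table names by family were measured in the same libraries. The NR1D2 identifier (ENSDARG00000009594), a second Rev-erb beta gene, was higher in males by 0.56 ± 0.12 (adjusted p = 0.000372), at 34.4 ± 9.71 CPM in females and 50.3 ± 7.73 CPM in males (SD, n = 12 each). In NF-training it was at 23.2 to 27.1 CPM in females and 36.8 to 44.2 CPM in males, below all NF-control and all OF-training fish of the same sex. Those held 31.1 to 48.6 and 28.8 to 46.4 CPM in females, and 49.0 to 57.6 and 54.7 to 59.1 CPM in males. Between NF-training and NF-control, 10.7% of all tested genes separated in females and 13.7% in males. Between OF-training and NF-training the shares were 8.58% and 15%. The OF-control fish overlapped both NF-control and OF-training in each sex, and their place beside NF-training is not given here. The fitted differences were -0.47 ± 0.16 for training in normally fed fish (unadjusted p = 0.00824, adjusted p = 0.289) and 0.57 ± 0.16 for overfeeding in trained fish (unadjusted p = 0.00197, adjusted p = 0.44), so neither passed. Unlike nr1d2a, this identifier varied little among fish of a cell, with a within-cell SD of 0.29 on the log2 scale, and only 14.9% of tested genes had a lower one. Within a cell its highest fish exceeded its lowest by 1.08- to 2.08-fold.

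Of the PER1 identifiers, ENSDARG00000056885 was lower in males by -0.29 ± 0.11 (adjusted p = 0.0422), a call that was lost on leaving out 18 of the 24 fish in turn, and the other (ENSDARG00000012499) differed by -0.23 ± 0.15 (adjusted p = 0.205). One CLOCK identifier (ENSDARG00000003631) was lower in males by -0.37 ± 0.14 (adjusted p = 0.0316), lost on leaving out 14 of the 24, and the other (ENSDARG00000011703) differed by 0.00 ± 0.32. The sign of both called differences also turned with library size alone and with TPM, but relative to the median of all genes it stayed negative. In the treatment comparisons 0 of these 5 identifiers passed (edgeR), and NR1D2 alone had an unadjusted p under 0.05.

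Partners of the members were examined in the same way. The table gave the activator bmal1 and the repressor cry1 only as BMAL1 and CRY1, with 2 identifiers each. One BMAL1 identifier (ENSDARG00000006791) was higher in males by 1.49 ± 0.21 (adjusted p = 4.59e-06 by edgeR). Its female range of 0.322 to 1.59 CPM lay wholly below its male range of 1.91 to 4.39 CPM. These are low levels, and 5.79% of all tested genes separated the sexes in this way, 2.1% with males higher. The other BMAL1 identifier (ENSDARG00000035732) differed by 0.43 ± 0.22 (adjusted p = 0.113). One CRY1 identifier (ENSDARG00000011583) was higher in males by 1.06 ± 0.22 (adjusted p = 0.000406). The other (ENSDARG00000045768) differed by 0.21 ± 0.09 between the sexes (adjusted p = 0.052). It was lower in overfed untrained fish, at 24.9 to 29.4 CPM in OF-control against 32.1 to 46.3 CPM in NF-control, so that all 6 fish lay below the other 6. Of all tested genes 0.302% separated in this comparison, and 0.166% did so with OF-control lower. For this CRY1 identifier the log2 difference was -0.45 ± 0.12, with an unadjusted p of 0.00121 and an adjusted p of 0.233 by edgeR. With DESeq2 the adjusted p was 0.0165. In this comparison DESeq2 called 85 of 16223 genes and edgeR 0. For bmal2 (ENSDARG00000041381), the activator paralog, the sex difference was 0.60 ± 0.24 (adjusted p = 0.0466, lost on leaving out 12 of 24 fish). Its difference for training in normally fed fish was -0.98 ± 0.34 (unadjusted p = 0.00847, adjusted p = 0.289), and for overfeeding in trained fish 0.88 ± 0.34 (unadjusted p = 0.0175, adjusted p = 0.528).

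Across the rest of the clock, sex was the only comparison with calls by edgeR. Among 4 tested cryptochromes, 3 were called higher in males and 0 lower. They were cry3b, at 3.40 ± 1.60 CPM in females and 10.9 ± 2.85 CPM in males (log2 1.71 ± 0.21, adjusted p = 8.29e-07), cry4, at 0.652 ± 0.249 against 1.81 ± 0.411 CPM (1.45 ± 0.19), and cry3a, at 67.0 ± 23.7 against 128 ± 24.2 CPM (0.94 ± 0.18). For cry3b and cry4 no male overlapped any female, as was so with males higher for 2.1% of all tested genes.

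Among 5 tested ROR and Rev-erb relatives 3 were called higher in males and 1 lower. The Ror gene rorcb was at 2.25 ± 1.13 CPM in females and 17.2 ± 12.2 CPM in males (log2 2.79 ± 0.37, adjusted p = 2.00e-06). Its ranges did not overlap, as for 2.1% of all tested genes with males higher. By contrast nr1d4a, a fish Rev-erb paralog, was higher in females, at 0.301 to 20.8 CPM against 0.053 to 0.808 CPM in males (-4.08 ± 0.65, adjusted p = 1.99e-05). The Dec2 repressor gene BHLHE41, a paralog of bhlhe40, was also higher in females (30.1 ± 11.4 against 11.0 ± 7.19 CPM, log2 -1.54 ± 0.30, adjusted p = 0.000201). With library size alone the value was -0.10 (adjusted p = 0.747), but there the median of all genes was 1.44. Relative to the median of its own setting, BHLHE41 was at -1.60 with TMM and -1.54 with library size alone. Of 8 PAR bZIP and nfil3 genes, output factors that bind D-boxes, 5 were called higher and 1 lower in males, and of 4 clock kinase and ubiquitin ligase genes 0 were called (2 had an unadjusted p under 0.05). These shares stand beside 45.8% over all tested genes.

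In the treatment comparisons 0 genes of these lists passed with edgeR. For overfeeding in untrained fish, where 11.3% of all genes had an unadjusted p under 0.05, all 4 light-inducible DNA repair genes had one and were below 0 (median log2 -0.58, lowest adjusted p = 0.22), among them the photolyase gene cry5 (-0.66 ± 0.23). Of the members, per2 was at -1.14 in that comparison (adjusted p = 0.24), and of the listed D-box factors tefa was at -1.20 ± 0.28 (unadjusted p = 0.00031, adjusted p = 0.163). The latter was singled out after its value was seen. Whether these differences share a cause was not tested, and group and tank cannot be told apart.

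The members differed most in how much they varied between fish of the same group and sex. After subtracting the mean of each of the 8 cells of group and sex, nr1d2a had an SD of 1.54 on the log2 scale, larger than 98.3% of tested genes, and its highest fish exceeded its lowest by 4.45- to 14.2-fold within a cell. The SD was 0.93 for npas2 (larger than 89.5% of genes), 0.75 for bhlhe40 (80.0%) and 0.62 for nr1d1 (69.2%). For per2 it was 0.47 (48.6%) and for per3 0.36 (29.95%), close to or below the median gene.

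Some pairs of members shared these deviations. Within cells nr1d1 and nr1d2a rose and fell together over the 24 fish (Pearson r = 0.77, Spearman 0.71, and 0.74 without the 2 fish farthest from the median), with 0.71 in females and 0.89 in males. The same fish was lowest for both in 7 of 8 cells and highest in 5. The activator npas2 had r = 0.63 with nr1d1 and 0.59 with nr1d2a. Among 12255 other genes with a mean log2 CPM of at least 0, the top 5% began at 0.62 for npas2, so that the second value lay below it. For nr1d2a the top 5% began at 0.45, and npas2 lay within it. The repressor bhlhe40 ran opposite, with r = -0.55 for nr1d2a (-0.46 in females, -0.89 in males) and -0.62 for npas2. The bottom 5% of these genes for bhlhe40 began at -0.55404, so that nr1d2a, at -0.55397, lay just outside it. For nr1d2a the bottom 5% began at -0.44, and bhlhe40 lay within it. In 0 of 8 cells did nr1d2a and bhlhe40 share their highest or lowest fish. Leaving out each fish in turn kept the 5 values at 0.73 to 0.82, 0.57 to 0.69, 0.50 to 0.72, -0.64 to -0.52 and -0.70 to -0.45. These 5 pairs were the ones with the largest r in size among all pairs of members. By contrast per2 and per3 had r = 0.02 within cells over all fish. The value was -0.18 in females, 0.42 in males and 0.37 on log2(TPM + 1), so it depended on sex and scaling. The members that went together, nr1d1, nr1d2a and npas2, were also those with a positive r with the vitellogenin share among females (0.42 to 0.54), and its part in these values was not tested. All are descriptions over 24 fish that share library scaling, and no test is attached to them.

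**Figure D4:**
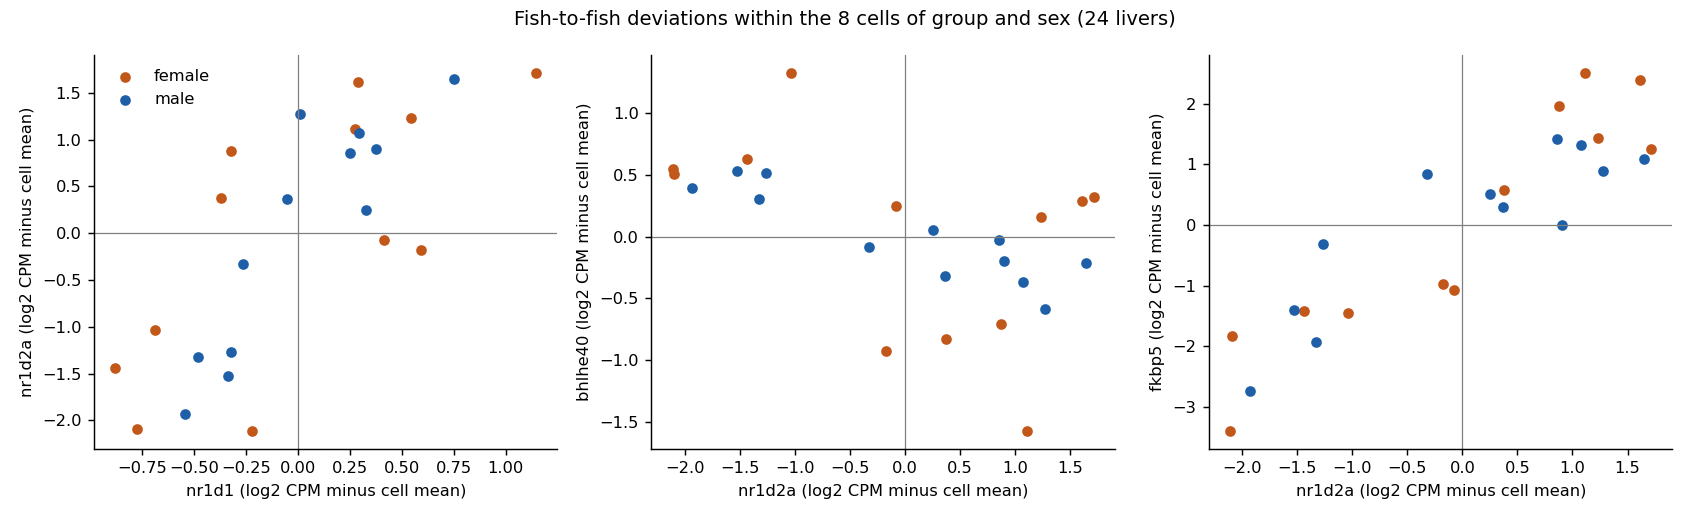
Deviation of each of the 24 livers from the mean of its group and sex (log2 TMM-scaled CPM) for nr1d1 against nr1d2a, nr1d2a against bhlhe40 and nr1d2a against fkbp5. The points rise from left to right in the first panel and the third panel (r = 0.77 and 0.90) and fall in the second (r = -0.55).

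The genes most like nr1d1 in this measure, out of 12255, were R3HDM4 (r = 0.77), nr1d2a (0.77), the PER1 identifier ENSDARG00000056885 (0.74), MYC (0.74) and ciarta (0.73), where the top 5% of genes began at 0.45. The clock repressors nr1d2a, PER1 and ciarta were thus among the 5 nearest. Those most like npas2 were PGM2L1 (0.86), zgc:63863 (0.84), nudt7 (0.83), zdhhc20a (0.82) and SYVN1 (0.82), where the top 5% began at 0.62.

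Among 4 glucocorticoid responsive genes listed for comparison, FKBP5, a chaperone that glucocorticoids induce, had r = 0.90 with nr1d2a (Spearman 0.86, 0.93 in females and 0.87 in males), and lay on the same side of its cell mean as nr1d2a in 23 of 24 fish. It was also, of the 12255 genes compared, the one most like nr1d2a, with MAF next (0.89), both singled out after their values were seen. The other 3 had r = 0.71 (tsc22d3), 0.63 (KLF9) and 0.16 (sgk1) with nr1d2a. For nr1d1 the values were 0.55 for FKBP5, 0.58 for tsc22d3, 0.27 for KLF9 and 0.07 for sgk1. With bhlhe40 the values were -0.57 for FKBP5, -0.33 for tsc22d3, -0.31 for KLF9 and -0.76 for sgk1. The last was -0.88 in females and -0.22 in males, and -0.55 on log2(TPM + 1). In the same order of genes, npas2 had 0.61, 0.39, 0.23 and 0.31. For per2 they were -0.34, -0.49, -0.57 and 0.04, and for per3 -0.44, 0.01, -0.12 and -0.27. In no treatment comparison was any of these 4 genes called, nor did any have an unadjusted p under 0.05 (edgeR).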

How the data were processed

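Per the labels and the study's methods, liver RNA was extracted with the RNeasy Mini Kit and sequenced on a BGISEQ-500, reads were trimmed with Trim Galore (0.6.4 in the submitters' processing notes), and the authors quantified transcripts with kallisto, for which the sources give differing version numbers, on GRCz11. The step from transcripts to genes is not given in the sources used here. The deposited tables hold estimated counts (19315642 to 21399321 per liver) and the TPM values deposited by the authors. Groups, sex and fish numbers came from the labels.

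Estimated counts were rounded to whole numbers and tested with edgeR 4.0.16 (R 4.3.3, limma 3.58.1): TMM scaling, filterByExpr with a minimum count of 10 (16223 genes kept), quasi-likelihood tests on group plus sex over 24 fish, and a model of 8 group-by-sex cells for effects within groups and interactions with sex. P-values are two-sided and were adjusted by Benjamini-Hochberg over all genes at 0.05. SE is the absolute log2 fold change divided by the square root of F. Levels are TMM-scaled CPM, and log2 CPM used a prior count of 2. Symbols came from the supplied gene names table. P-values set each difference against the spread between fish, and do not cover a spread between tanks.

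The members and lists were chosen with earlier results of these data known, and the BMAL1 and CRY1 identifiers after the names table was seen. Named genes were all members, clock genes of the lists called in a contrast (at most 6 by smallest p), bmal2, and the 5 genes most like nr1d1 and npas2. Alternatives were library size alone, no count filter, a mean count of at least 10, vitellogenin genes left out, a replicate block, DESeq2 1.42.0, limma voom, log2(TPM + 1) and log2(TPM + 0.1), no sex covariate, the 12 fish alone, each sex alone and each fish left out. The fit was also run on simulated data with changes set in NF-training alone and no sex effect. That run does not cover the sex comparison, and its outcome is not given here. The same fish number in different groups was not treated as a pair in the main fit. Deviations of same-number pairs had a median correlation of -0.004 over 36 pairs (-0.215 to 0.377). Some of these pairs joined a male and a female, so these values cannot exclude a pairing.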

Additional observations from a re-analysis of the deposited data

Results flagged for a closer look

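Of 24 sets of 6 fish examined (6 clock genes in 4 groups), 1 held a fish far from the others, and chance gives about 1 in 20. The nr1d1 level of NF-training fish 1, a female, was 71.7 CPM, where the nearest fish of the group had 30.4 CPM, a gap of 0.703 of the whole range.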

How the results depend on the processing

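No member was called in a treatment comparison under any alternative. Scaling changed the counts of members called between the sexes. Library size alone called 6 members over all fish, 4 in NF-control, 5 in OF-control, 4 in NF-training and 6 in OF-training. Of all 16223 genes it called 14428, 11598, 11366, 5695 and 10804 in the same order. Log2(TPM + 1) called 4 over all fish and 2 in NF-control, OF-control and OF-training, beside 11324, 5457, 5390 and 4677 of all genes. Log2(TPM + 0.1) called 4 over all fish, 1 in NF-control, 2 in OF-control and 2 in OF-training, beside 11617, 5128, 5410 and 5077 of all genes. With TMM, 7425 of all genes were called over all fish, so the calls rose over the whole table. Leaving out single fish gave 1 to 2. The sign of the sex difference turned for nr1d1 (1.12 with library size alone, 0.32 with TPM + 1, 0.33 with TPM + 0.1), CLOCK ENSDARG00000003631 (1.08, 0.32 and 0.41), PER1 ENSDARG00000056885 (1.17, 0.28 and 0.34), and for nr1d2a (-0.0194 without OF-training fish 6, in a range of up to 0.516 over single fish left out). With the replicate block, 1 member was called between the sexes (per2, 1.31, adjusted p = 0.00151) and 0 in the treatment comparisons, and within-group sex effects could not be fitted. Of 52 further member comparisons with an unadjusted p of 0.05 or more, 30 changed sign in at least 1 alternative, none above 1.04 in size, and 12 passed in an alternative, 2 of them with the sign changed. Depth limits npas2, with 2 to 94 counts per library, and 6 fish a group limit nr1d2a.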
